A study of Drosophila melanogaster with 3 samples.

Results

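The Trithorax group genes examined here are the 10 genes Trl, trx, brm, ash1, ash2, osa, mor, kis, Snr1 and z, of 13945 protein-coding genes in the annotation. They were taken by gene symbol, by a rule that uses no measured value. The list itself was chosen with earlier results of these data known. The question was where on these genes the fusion protein CG10543-eGFP was found. Chromatin immunoprecipitation sequencing (ChIP-seq) with an antibody against GFP had been done on whole Drosophila melanogaster embryos of the transgenic strain CG10543-GFP, which stably expresses CG10543 with GFP at its C terminus. The embryos were 0 to 24 h old and of both sexes, and there were 3 biological replicates of this 1 group, numbered as in the labels. No embryos without the fusion protein were analysed here, so binding of CG10543 and signal from other sources cannot be told apart. A 0 to 24 h collection mixes all stages and all tissues of the embryo, and the cells behind a peak are not known.

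Trithorax group proteins keep developmental genes, the Hox genes among them, in an active state, and act against Polycomb group proteins, which keep them silent. Some members remodel nucleosomes (the Brahma complex with brm, mor, osa and Snr1, and the separate remodeller kis), some modify histone H3 or belong to complexes that do (trx, ash1 and ash2), and some bind DNA directly (Trl, which encodes GAGA factor, and z, which encodes Zeste). The measurements below concern CG10543 at the genes of these proteins, and say nothing of where the Trithorax proteins themselves bind.

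Peaks came from the authors' optimal set by irreproducible discovery rate (IDR), a measure of how alike peaks rank between replicates. A peak of this set need not be strong, or present, in each replicate. The set holds 7545 summits on the dm6 assembly, and each carries a signal value for its enrichment, as the authors' caller gave it. Rank 1 is the highest signal, so a low rank number means a strong peak. A summit was taken as at a gene when it lay inside the gene or within 5000 bp of a transcription start site (TSS) of the gene. Ranks in a replicate are those of the region nearest to the summit in that replicate's own list of 30000 regions. A replicate was said to recover a summit when that region lay within 200 bp and among the 7545 strongest of the list. The lists hold no read counts, so the depth of each replicate is unknown.

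The sequences at the 6 strongest of the members' summits, which lie at Trl, osa, brm and trx, are shown first, in order of rank, so that the bases under the highest signal can be read. They are followed by windows of 3 weaker summits, in kis and trx, that were picked because they hold GAGA or Zeste words, as examples of those words and not as a contrast with the first 6. Each is the 101 bases centred on the summit, from the RefSeq copy of Release 6 (dm6), on the strand of the gene, which is the minus strand for all 5 genes. Capitals mark GAGAG or CTCTC, the word bound by GAGA factor read on either strand, and the Zeste words CGAGCG or CGAGTG as well as TGAGCG or TGAGTG, with their reverse complements.
Trl rank 6 (chr3L:14759462-14759562): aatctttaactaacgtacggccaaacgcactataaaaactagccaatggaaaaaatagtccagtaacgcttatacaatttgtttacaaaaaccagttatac
osa rank 37 (chr3R:17700511-17700611): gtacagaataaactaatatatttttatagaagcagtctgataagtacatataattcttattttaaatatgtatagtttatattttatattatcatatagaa
brm rank 67 (chr3L:15982952-15983052): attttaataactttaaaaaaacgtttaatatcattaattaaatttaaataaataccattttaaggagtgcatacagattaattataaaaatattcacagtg
osa rank 160 (chr3R:17704046-17704146): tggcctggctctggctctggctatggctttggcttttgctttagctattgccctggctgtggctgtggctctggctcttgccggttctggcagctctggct
osa rank 316 (chr3R:17700720-17700820): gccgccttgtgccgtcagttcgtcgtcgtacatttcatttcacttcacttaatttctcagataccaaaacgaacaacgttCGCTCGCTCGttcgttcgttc
trx rank 631 (chr3R:14283823-14283923): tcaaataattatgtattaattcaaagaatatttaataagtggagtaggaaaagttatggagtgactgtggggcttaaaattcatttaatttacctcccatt
kis rank 1660 (chr2L:248168-248268): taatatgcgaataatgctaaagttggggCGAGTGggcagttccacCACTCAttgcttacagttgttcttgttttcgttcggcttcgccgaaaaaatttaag
kis rank 2637 (chr2L:222061-222161): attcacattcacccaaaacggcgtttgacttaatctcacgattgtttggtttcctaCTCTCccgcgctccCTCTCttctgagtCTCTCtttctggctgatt
trx rank 4823 (chr3R:14278097-14278197): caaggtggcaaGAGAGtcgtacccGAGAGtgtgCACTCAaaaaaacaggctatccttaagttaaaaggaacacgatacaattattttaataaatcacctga
Of the first 6 windows, that of the osa summit of rank 316 holds 2 overlapping Zeste words, and the others hold neither word in the bases printed. The osa summit of rank 37 has 2 matches to GAGAG farther out, within 100 bp of the summit. The window of the osa summit of rank 160 carries 10 copies of TGGCT in 101 bases, and it was the 1 window of 7545 that held as many, a feature chosen after its letters were seen. The last 3 hold from 2 to 3 of the words marked.

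Of the 10 genes, 8 had at least 1 IDR summit, against 52.6% of the 13945 protein-coding genes, and 7 had a summit within 500 bp of a TSS of their own, against 27.9%. Counting only peaks recovered by both other replicates, the 7 became 4 without replicate 2 and 4 without replicate 3, when trx, osa and Snr1 dropped out, and stayed 7 without replicate 1. There were 41 summits in 37 intervals. Some of these intervals overlap, at trx, osa and kis, so not all of them are separate places. The strongest summit of each of the 8 genes had a median rank of 1018, against 2294 over the 7336 protein-coding genes with a summit. A gene with more summits has more chances of a strong one, and this was not adjusted for. Over all 41 summits the median rank was 2637, against 3773 over all IDR summits. The summits were unevenly spread: osa had 11, trx 8, Trl and kis 7 each, brm 3, ash2 and Snr1 2 each, mor 1, and ash1 and z none. Of the 41, 28 lay at intronic bases of the member, 3 in its 5' UTR, none in its coding sequence and 10 outside it. Counting the TSSs of all genes, 23 were nearest to a TSS of the member itself and 18 to that of another gene, many of them in neighbours that overlap or adjoin the member. Which gene such a summit belongs to was not tested. The brm summit of rank 67, which is as near to the start of Arl1 as to that of brm, was counted among the 23.

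**Figure D1:**
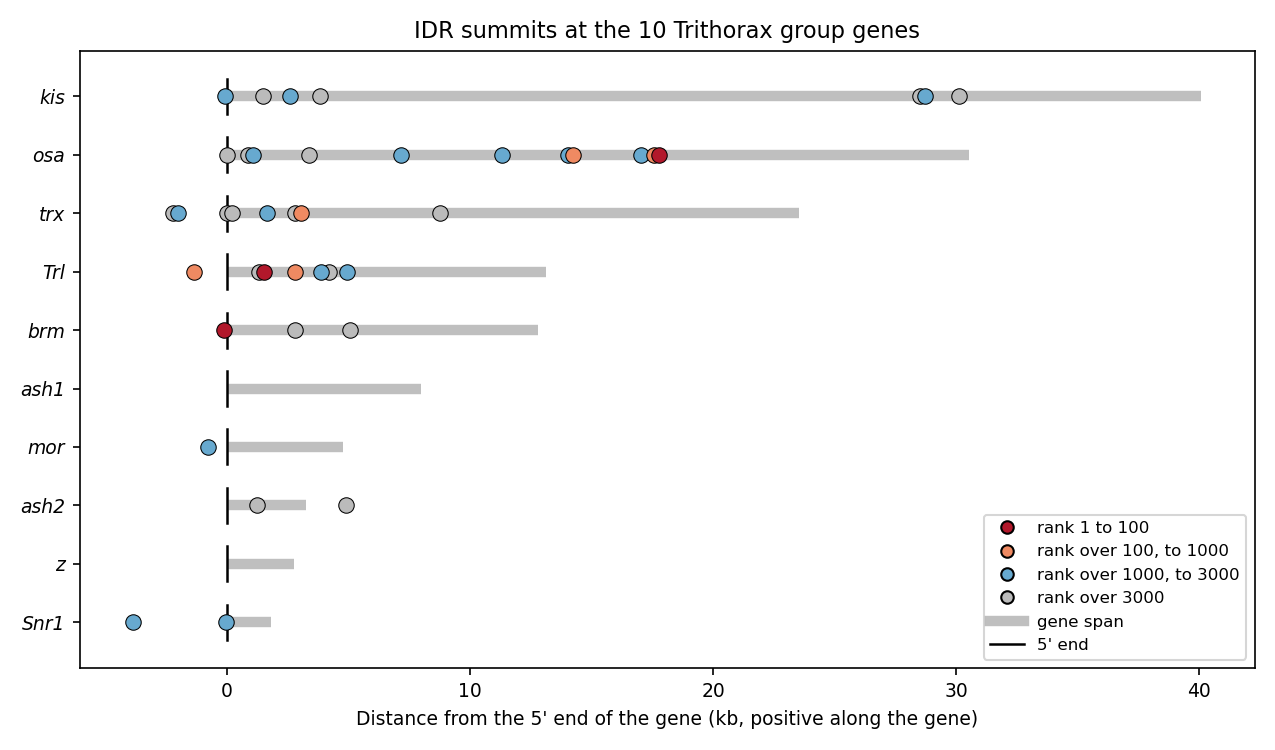
Positions of the 41 IDR summits along the 10 genes, as the distance in kb from the 5' end of each gene, with the gene span as a grey bar and the colour giving the rank class. The summits of rank 100 or better lie in an intron of Trl, deep within osa and at the 5' end of brm, while ash1 and z carry none.

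The 4 Brahma complex genes all had summits, and these reached from very strong ones, in osa and brm, to the weakest of all 41, in osa. The gene brm encodes the ATPase of the complex (FBgn0000212, 3L, 15970082 to 15982869). Its main summit, at 15983002, lay 133 bp upstream of the gene and had signal 1955 and rank 67. It ranked 325 in replicate 1, 63 in replicate 2 and 27 in replicate 3, so replicate 1 placed it lowest, but among the strong regions in all 3 replicates (mean 138 ± 163, SD, n = 3). The gene Arl1 starts on the other strand 266 bp from brm, and the summit lies midway between the 2 starts. The 2 further summits of brm, of ranks 6419 and 6535, were intronic and lay nearest to the genes CG17027 and CG17028, which sit within brm. They were recovered in 2 replicates and in 1.

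The gene osa (FBgn0261885, 3R, 17687818 to 17718350) encodes a large ARID-domain subunit of the complex and had the most summits of any member, all of them inside the gene. The strongest, at 17700561, had signal 2245 and rank 37, and ranked 49, 28 and 71 in replicates 1, 2 and 3. It lay in an intron 17789 bp downstream of the osa TSS, 180 bp from the start of the noncoding RNA gene lncRNA:CR46036, and shared an interval of 1479 bp with summits of ranks 316 and 1443. The one of rank 316 stood at 309, 1037 and 665 in the replicates. A second cluster, in an interval of 939 bp, held summits of ranks 160 and 1225, the first of them 401 bp from the start of lncRNA:CR46035. The summit of rank 160 ranked 54 in replicate 1 but 353 and 433 in replicates 2 and 3. All 5 summits of these clusters were recovered in each replicate. At the osa TSS itself the signal was weak: a summit 17 bp downstream, in the 5' UTR, had rank 6068 and ranked 23769, 5123 and 6986 in the replicates, so replicate 1 hardly showed it. A summit 1062 bp downstream of the TSS, of rank 1132, was steadier, with 735, 1661 and 1507.

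The other Brahma complex genes are short and their peaks were of middle rank. Snr1 (FBgn0011715, 3R, 5470926 to 5472754), the SNF5-related subunit, had a summit 39 bp upstream of its TSS with rank 1406. The nearest region ranked 1531 in replicate 2 and 738 in replicate 3, while the list of replicate 1 held no region nearer than 3813 bp, so this peak was not detected in replicate 1. Its other summit, of rank 1561, lay 3852 bp upstream of Snr1 and 27 bp from the TSS of the ribosomal protein gene RpL35A. It was recovered in all 3 replicates, at 1350, 3317 and 1337. The gene mor (FBgn0002783, 3R, 15968134 to 15972913), the scaffold subunit Moira, had 1 summit, of rank 2335, which lay 784 bp upstream and 399 bp from a TSS of Hel89B, a gene that starts on the other strand. Its replicate ranks were close together, 2242, 1785 and 2066 (2031 ± 231, SD, n = 3).

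The gene kis (FBgn0266557, 2L, 210735 to 250823) encodes a chromodomain remodeller and is the longest of the 10, at 40.1 kb. Its 7 summits were weaker than the leading peaks of osa, Trl and brm, with ranks from 1660 to 5488. They lay within 3851 bp of one or the other of its 2 TSSs. Near the distal TSS the summit 61 bp upstream had rank 2743 and replicate ranks of 3710, 4246 and 3047, and the intronic summit 2605 bp downstream had rank 1660 and replicate ranks of 1733, 1423 and 1807; the nearest TSS to it was that of lncRNA:CR44218, 691 bp away. These were the kis summits recovered in all 3 replicates. At the internal TSS the summits 149 and 351 bp upstream, of ranks 2637 and 3815, stood at 1092 and 1760 in replicate 1, at 12262 and 16485 in replicate 2 and at 3837 and 6159 in replicate 3. Replicate 1 was thus the highest at both and replicate 2 the lowest.

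Among the histone-modifying members, trx had 8 summits, ash2 had 2 and ash1 had none. The gene trx (FBgn0003862, 3R, 14263358 to 14286903) encodes a methyltransferase for histone H3. Its strongest summit was intronic, 3030 bp downstream of the TSS, with signal 805 and rank 631, and it ranked 1379, 463 and 598 in the replicates. The other intronic summits, at 1655, 2784 and 8756 bp downstream, had ranks 2617, 3994 and 4823. At the TSS there was a weak pair of summits, 212 bp downstream with rank 5045 and 6 bp upstream with rank 5519. The downstream one was recovered in replicate 1 only, at 2336, and the upstream one in replicates 2 and 3 only, at 5620 and 3749. Those same regions of replicates 2 and 3 lay 228 and 227 bp from the downstream summit, just past the limit of 200 bp. A further pair, 2005 and 2204 bp upstream of trx, lay 163 and 36 bp from a TSS of the neighbouring gene red, with ranks 1760 and 5739.

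The gene ash2 (FBgn0000139, 3R, 24650125 to 24653376) encodes a subunit of the complexes that methylate histone H3. It had a summit 34 bp upstream of an internal TSS, in intronic sequence of its longer transcripts, with rank 3536 and replicate ranks of 2224, 6870 and 4831. The outermost start of ash2, which lies 82 bp from that of puf on the other strand, had no summit within 500 bp. A second summit, of rank 6059, lay beyond the 3' end and 124 bp from a TSS of CG6695.

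The gene ash1 (FBgn0005386, 3L, 19590773 to 19598755) encodes a histone H3 methyltransferase. No IDR summit, and no region of the pooled list of 30000, lay inside it or within 5000 bp of its TSS. Replicate 3 alone had a region close to its start, 216 bp upstream at rank 4957, between ash1 and the gene Taf6, whose start is 333 bp away on the other strand. The strongest summit of the whole IDR set, of rank 1 at 19590621, lay 152 bp past the 3' end of ash1, 8134 bp from its TSS and 97 bp from a TSS of the neighbour CG14100. It ranked 20, 1 and 1 in the replicates. It falls outside the searched region and was not counted for ash1.

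Trl (FBgn0013263, 3L, 14747929 to 14761049) had the strongest peak of the 10 genes. The summit at 14759512, in an intron 1537 bp downstream of the outermost TSS, had signal 4296 and rank 6, and ranked 11, 4 and 6 in replicates 1, 2 and 3 (7.0 ± 3.61, SD, n = 3). Trl was among 18 of the 13945 protein-coding genes, 0.129%, with a summit as strong in their searched region, and genes that lie close together share summits in this count. Trl has 4 TSSs, and several of its weaker summits lay nearest to internal ones. The summit 267 bp upstream of an internal TSS had rank 976 and replicate ranks of 679, 1127 and 1828. The summit 144 bp downstream of another, in the 5' UTR, had rank 2077 and ranked 4217, 1859 and 1626. The summit 1216 bp downstream of the same TSS, of rank 1765, was at 579 and 1144 in replicates 2 and 3 but at 12959 in replicate 1. A summit of rank 661, at 1691, 460 and 617 in the replicates, lay upstream of Trl and 390 bp from a TSS of Mgat4a, which starts 979 bp from Trl on the other strand.

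The gene z (FBgn0004050, X, 2447769 to 2450550), the X-linked member, had no IDR summit. The nearest lay 80796 bp beyond its 3' end. Regions below the IDR threshold were present: the pooled list held 3, the strongest 36 bp downstream of a TSS at pooled rank 8679 with a −log10 q-value of 2.43. At that place the replicates ranked 7419, 25031 and 8706. The region was weak in each replicate and weakest in replicate 2.

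Over the 41 summits, 20 were recovered in all 3 replicates, or 48.8%, against 52.0% of all 7545 IDR summits, a share near that background. Replicate 1 recovered 34 of the 41 (82.9%, against 76.4% of all IDR summits), and replicates 2 and 3 recovered 30 each (73.2%, against 78.5% and 80.9%). Replicate 1 thus recovered the most at these genes and the fewest over the whole set. Of the summits that missed at least 1 replicate, 6 were recovered in replicate 1 only (14.6%, against 7.55% of all IDR summits), 3 of them in introns of osa, and 5 in replicates 2 and 3 only (12.2%, against 15.9%). The latter included those at the TSSs of Snr1, osa and trx. The summits of the 6 that lie at trx, of ranks 5045 and 5739, had replicate 2 regions 228 and 257 bp away, past the limit of 200 bp. The one of rank 5045 also had a replicate 3 region 227 bp away. The share of protein-coding genes with a TSS summit fell in the same settings, to 22.1% without replicate 1, 18.8% without replicate 2 and 17.8% without replicate 3, where 7, 4 and 4 members were counted. Trl, brm, ash2 and kis were counted in each. Differences between the members and other genes were not tested.

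**Figure D2:**
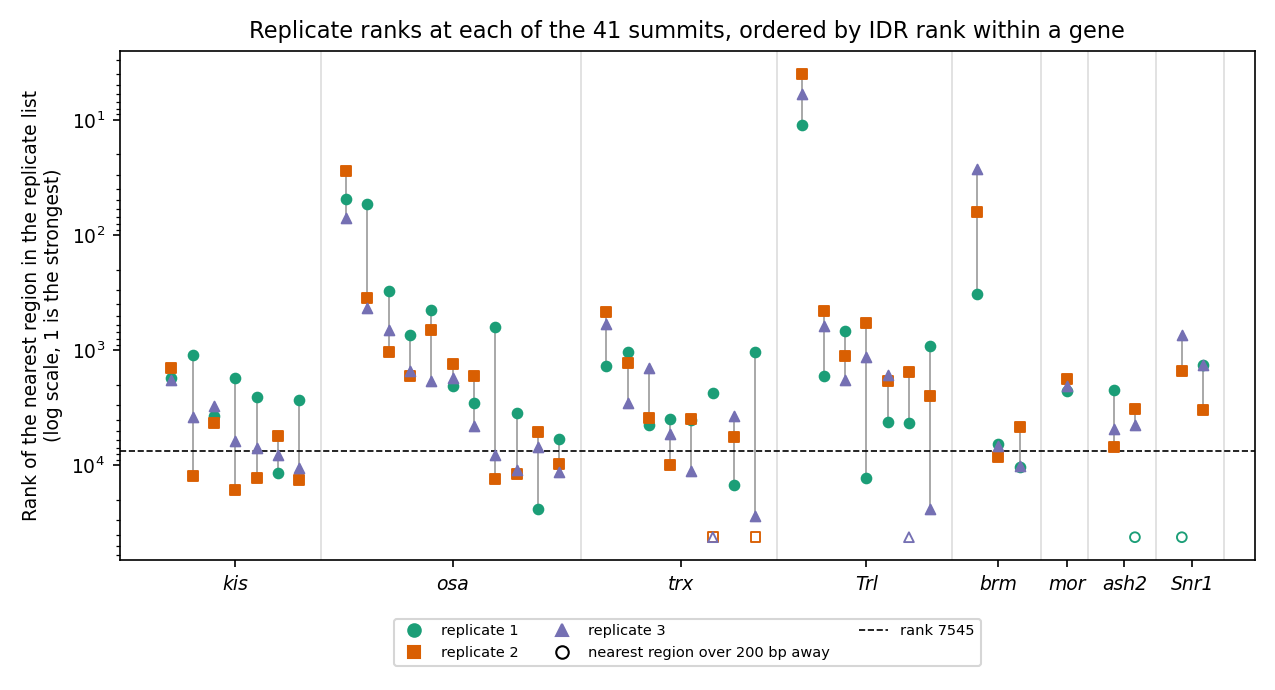
Rank of the nearest region in each replicate list for the 41 summits, grouped by gene, on a log axis with the strongest at the top; open symbols mark a nearest region over 200 bp away and the dashed line marks rank 7545. The leading summits of Trl, osa and brm sit in the top ranks of all 3 replicates, and the open circle at Snr1 is the summit with no region in replicate 1.

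By place, the 11 summits within 500 bp of a TSS of the member had a median IDR rank of 2743 and reached from 67, at brm, to 6068, at osa. The 24 intronic summits farther from those TSSs had a median of 2664 and reached from 6, at Trl, to 6877, at osa. The 6 summits outside the members and over 500 bp from their TSSs had a median of 2048. In replicate 3 the first class was recovered in 10 of 11 cases and the second in 15 of 24; in replicate 1 the counts were 8 of 11 and 21 of 24, and in replicate 2 they were 8 of 11 and 17 of 24. With the TSSs of any gene, for which the shares over all IDR summits are at hand, replicate 3 recovered 86.4% of the 22 member summits within 500 bp of a TSS and 57.9% of the 19 farther away, against 84.3% and 76.8% of all IDR summits. In replicate 1 these shares were 81.8% and 84.2%, against 76.7% and 76.1%, and in replicate 2 they were 72.7% and 73.7%, against 78.5% in both classes. Summits of 1 gene share a locus and are not independent, so these counts are a description.

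A long gene offers more room for summits, and the members are long, with a median of 10.4 kb against 2.17 kb for protein-coding genes. Among genes over 20 kb, trx, osa and kis all had a summit (68.7% of 1013 such genes did) and all had one at a TSS (47.9%). Among genes of 5 to 20 kb, Trl and brm had a summit and one at a TSS, and ash1 had neither (64.4% and 44.3% of 2471 genes). Among genes under 5 kb, ash2, Snr1 and mor had a summit and z had none (48.3% of 10461 genes), and ash2 and Snr1 had one at a TSS (22.1%). Genes with 7 or more summits were 1.41% of all protein-coding genes, and 4 of the 10 members, Trl, trx, osa and kis, were among them. For their own length classes the shares with 7 or more were 2.75% of genes of 5 to 20 kb, the class of Trl, and 10.6% of genes over 20 kb, the class of the other 3. Counting 1 summit per interval, Trl had 6 and osa 8, while trx kept 8 and kis 7. Some intervals at trx, osa and kis overlap and were not merged, so summits there need not be separate peaks. The shares over all genes also count every summit. The members together had 2.05 summits per 10 kb searched, against 0.824 over protein-coding genes. By length class the density over protein-coding genes was 0.914 under 5 kb, 1.09 for 5 to 20 kb and 0.489 over 20 kb. Among the members Trl had the highest density, 3.86, followed by osa with 3.10 and trx with 2.80.

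**Figure D3:**
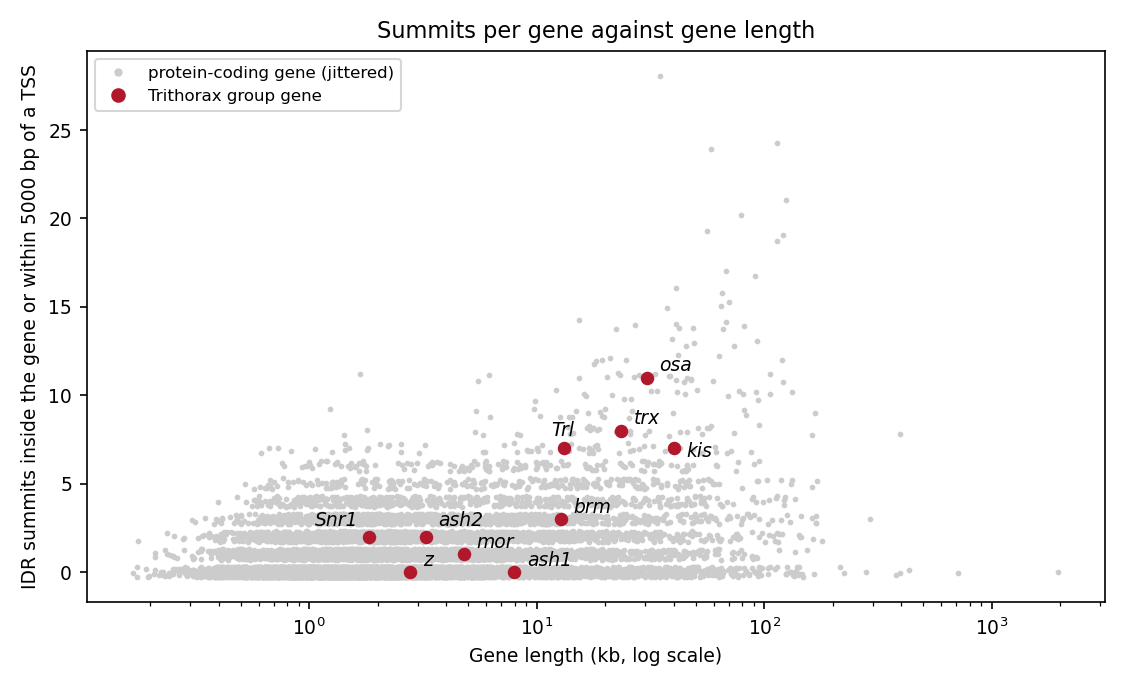
Number of IDR summits in the searched region of each protein-coding gene (grey, jittered vertically) against gene length on a log axis, with the 10 Trithorax group genes in red. Trl, trx, osa and kis lie at 7 to 11 summits among long genes, and ash1 and z lie at 0.

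Words bound by 2 of the member proteins were sought within 100 bp of the summits, on both strands. GAGAG was present at 22 of the 41 summits (53.7%; exact Clopper-Pearson 95% interval 37.4 to 69.3%) and at 30.5% of all IDR summits. One of the Zeste words given above was present at 21 (51.2%; 35.1 to 67.1%) and at 35.2% of all. The interval for GAGAG lies above the share over all summits, while that for the Zeste words takes it in at its lower end. Farther than 500 bp from every TSS, GAGAG was at 13 of 19 summits (68.4%, against 30.3% of all such summits), and nearer to a TSS it was at 9 of 22 (40.9% against 30.7%). GCCAT, the core of the Pleiohomeotic site, was at 15 (36.6% against 30.6%), GATAA at 13 (31.7% against 39.6%) and TATCGATA, the DRE, at 1 (2.44% against 2.33%), a summit at the osa TSS. The interval covers the counting of summits only and treats summits of 1 gene as independent, which they are not. The motifs, like the members, were chosen with earlier results of these data known.

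GAGAG was found at 1 or more summits of 7 of the 8 genes with a summit. It was in 6 of 7 windows of kis, 6 of 11 of osa, 5 of 8 of trx, 2 of 7 of Trl, 1 of 3 of brm, 1 of 2 of ash2, the single window of mor and none of 2 of Snr1. Counting overlapping matches, the trx window at 14285248 held 9, and the ash2 window and the osa window of rank 1132 held 8 each. Zeste words were in 7 of 11 windows of osa, 5 of 7 of kis, 3 of 8 of trx, 3 of 7 of Trl, 1 of 2 of ash2, 1 of 2 of Snr1, the window of mor and none of 3 of brm. Differences between the genes were not tested. Over all IDR summits the share with GAGAG showed no steady change with rank, at 29.0% in the first 100, 31.2% and 32.4% in the next classes and 29.6% at ranks 3001 to 7545. At the member summits GAGAG was found at 1 of 3, 1 of 5, 7 of 15 and 13 of 18 in the same classes. The higher share at these genes thus lay mostly at their weaker summits, which was not tested. The surroundings of the summits were richer too: in windows centred 500 bp to either side, GAGAG was found in 35.4% of 82 windows at these genes and in 23.5% of those at all IDR summits, and a Zeste word in 35.4% and 26.1%. Where summits lie close to 500 bp apart, as those of ranks 316 and 1443 in osa do, such a window covers another summit. The 82 windows are thus not all separate surroundings. Sequence matches are letters in the reference and do not show binding of GAGA factor or Zeste.

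**Figure D4:**
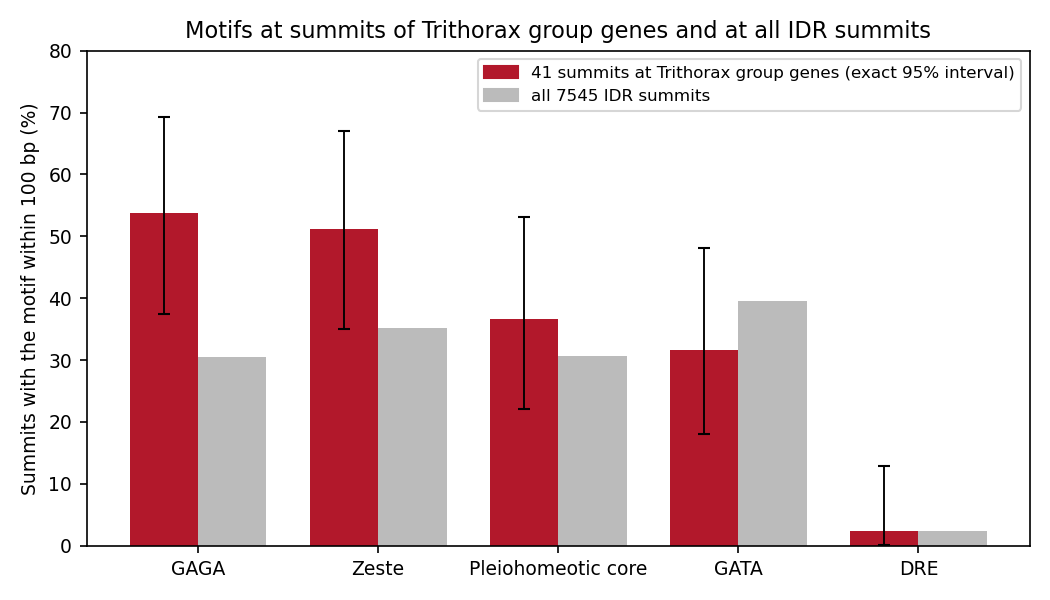
Share in percent of summits with each motif within 100 bp, for the 41 summits at Trithorax group genes (red, with exact 95% intervals) and for all 7545 IDR summits (grey). The red bar for GAGA stands at 53.7% with an interval that lies above the grey bar of 30.5%; in the other pairs the interval takes in the grey bar, for Zeste only at its lower end.

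The strongest summits of the 8 genes ranged widely in base composition. In 201 bp around the summit, G and C made up 25.4% at the Trl summit of rank 6, 29.4% at the osa summit of rank 37, 31.8% at the brm summit of rank 67 and 27.9% at the trx summit of rank 631. At the strongest summits of the other genes the share was higher, with 35.3% at Snr1, 43.3% at kis, 47.3% at mor and 53.7% at ash2, against a median of 43.3% over all IDR summits. The Trl value was among the lowest of the IDR set, with 1.96% of summits as low, against 5.17% for trx, 7.49% for osa and 13.4% for brm. The lower quartile of the first 100 IDR summits was 31.3%, just below the brm value. The strong osa summits of ranks 160 and 316 were different, with 58.2% and 47.8%. Over the IDR set the median also fell with strength, from 43.8% at ranks 3001 to 7545 to 37.3% in the first 100, and the median over the 41 summits, 43.8%, was close to that of all. How base composition bears on the signal was not tested.

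**Figure D5:**
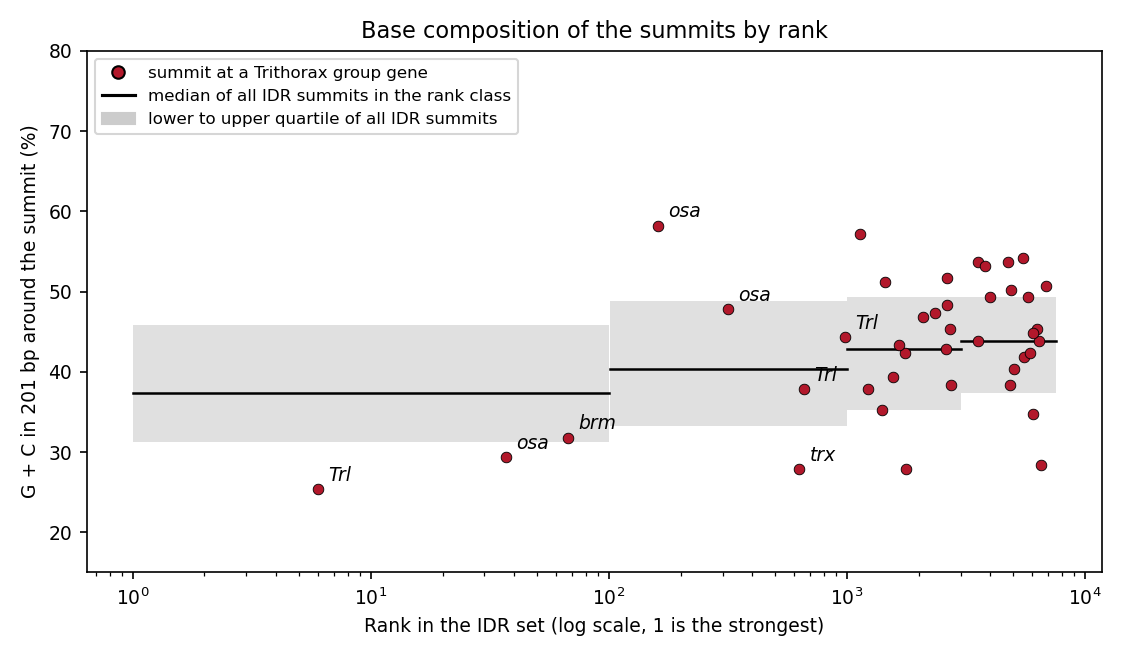
G and C content in percent of the 201 bp around each summit of the Trithorax group genes (red) against its rank on a log axis, with the median (line) and quartile range (grey) of all IDR summits in 4 rank classes. The Trl, osa and brm summits of rank 100 or better lie at 25.4 to 31.8%, and the osa summits of ranks 160 and 316 lie above the median of their class.

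Other genes of the same complexes and Polycomb group genes were set beside the members with the same rules. Of 30 Trithorax-related genes outside the list, 20 had a summit in the searched region (66.7%, against 52.6% of protein-coding genes). Within 500 bp of a TSS, 12 had one (40.0%, exact 95% interval 22.7 to 59.4%, against 27.9%). Those with the strongest TSS summits were nej, which encodes the histone acetyltransferase CBP, at rank 527, the remodeller gene Chd1 at 781, the Mediator gene skd at 942, the BTB-domain gene psq at 1183 and tna, named tonalli, at 1659. The Chd1 summit lay nearest to a TSS of Bem46 and that of skd nearest to one of Pdss2. No summit was found for Brd7-9, E(bx), Hcf, Lpt, Nurf-38, Pa1, Set1, Utx, e(y)3 and trr. Of 18 Polycomb group genes, 11 had a summit and 9 had one at a TSS, led by ph-p at rank 40, E(z) at 207, jing at 363, Su(z)2 at 417 and ph-d at 868. The jing summit lay nearest to the TSS of lncRNA:CR46075. No summit was found for Asx, Pcl, Sce, Scm, Sfmbt, esc and pho. The density was 1.30 summits per 10 kb for the Trithorax-related genes and 1.34 for the Polycomb group genes, against 2.05 for the 10 members. The median gene lengths of these lists also differed, at 6.17, 7.35 and 10.4 kb in the same order. For the 7 of 10 members bound at a TSS the exact 95% interval was 34.8 to 93.3%, which overlaps that of the Trithorax-related genes. Differences between the lists were not tested.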

How the data were processed

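The files are the authors' lists of ChIP-seq regions on dm6 for 3 biological replicates, their pool and the optimal IDR set. Column 7 of each deposited list is a signal value, and column 9 is a −log10 q-value, by the narrowPeak layout. Per the notes deposited with each sample, the replicates shared a control alignment. The sources used here do not name the programs that aligned the reads and called the regions. The depth of each sample is unknown, and the signal served to order regions inside one list. The dm3 lists were not used here.

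Summit positions are 1-based. Genes and TSSs are from Ensembl release 115 (18164 genes without transposable elements) and sequence is from RefSeq Release 6. All summits lay within the lengths of its 6 arms. No regions were identical between replicate lists, so each replicate counted as 1 sample. With 1 group there is no comparison between conditions, and no p-value is given. Intervals for shares are exact Clopper-Pearson 95% intervals and cover counting only. Members, lists and motifs were chosen with earlier results of these data known. All members were described with their 4 strongest summits; of the other lists, up to 5 genes with the strongest TSS summits and those without one in the searched region were named. Further member summits, most of them at a TSS, were picked for description once their ranks were known. Of 19 Polycomb group symbols, calypso matched no gene symbol. Assignment was tested on simulated data with planted summits. Python 3.11.15, numpy 2.4.6 and scipy 1.17.1 were used.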

Additional observations from a re-analysis of the deposited data

How the results depend on the processing

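The 5 counts or medians (members with a summit, members bound at a TSS, summits, summits recovered in all 3 replicates, median rank of the strongest summit per member) were recomputed under 15 settings, 49 values in all. Of these, 38 stayed within 1.5 times the reported count or, for the median, within the spread of the replicates, and 11 moved. Some of the 38 could hardly have moved. When a replicate was left out, only summits recovered in the others were counted, so the recovered count equalled the summit count by definition. A count of 8 of 10 members also cannot rise 1.5 times. Members with a summit stayed between 7 and 9 of 10. With the 3772 strongest peaks there were 25 summits, and with each summit given only to the nearest TSS 23 summits, 9 of them recovered in all 3 replicates. With all regions of each replicate list, 36 summits counted as recovered. The median rank, 1018 as reported, was 1406 with pooled regions of q under 0.01, where z entered, and 631 with 10000 bp to a TSS, where the rank 1 summit past ash1 entered. Leaving out each replicate gave 23 to 25 summits, 4 to 7 members bound at a TSS and medians of 1018 to 1096. The sets without a replicate also hold fewer peaks. Their ranks stayed those of the full IDR set, so the median could change only where a member lost its strongest summit. This happened at Snr1 alone, from 1406 to 1561 without replicate 2 or replicate 3, so the steady median says little about the replicates. No paired analysis was possible because all samples form 1 group. Depth limits cannot be given, since the lists hold no read counts.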
